A study of Macaca fascicularis with 86 samples.

Results

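The 36 regions captured from E20 embryo 1 of the crab-eating macaque include 28 regions from sections 1 to 5, and a score d was computed for each of these 28 from 12 genes. d is the mean log2(TPM + 1) of APOA1, APOA2, TTR, AFP, FGB and SERPINA1 minus the mean log2(TPM + 1) of COL1A1, COL1A2, COL3A1, POSTN, LUM and DCN. The 9 regions with the highest d are called endoderm-rich here and the 9 with the lowest d mesenchyme-rich, so that 18 of the 86 regions of the series are compared. The members were thus chosen by the measured levels of these 12 genes, which are described without a test and are not results. The series holds laser-captured regions of cryosections from 3 untreated embryos, with 15 regions from E18 embryo 1, 35 from E18 embryo 2 and 36 from E20 embryo 1. The polyadenylated RNA of 5 to 50 cells per region was sequenced by Geo-seq, which reads the transcriptome of small pieces cut from known places in a section. All 18 regions are of 1 embryo at E20. The labels give the tissue as embryo only, so the names yolk sac, endoderm and mesenchyme rest on the genes.

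The yolk sac wall is built of an inner endoderm, a layer of extraembryonic mesenchyme and an outer mesothelium, with blood islands and vessels inside the mesenchyme. Before the liver works, the yolk sac endoderm makes many of the plasma proteins that the liver makes later, among them apolipoproteins, clotting factors, protease inhibitors and carriers of iron and retinol, and it takes up and passes on nutrients. The mesenchyme lays down collagens, carries the vessels and exchanges signals with the endoderm.

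The endoderm-rich regions had d between 6.04 and 8.69, and the next region below had 5.17. The mesenchyme-rich regions had d between -5.72 and 3.03, and the next region above had 3.22. Only 2 mesenchyme-rich regions, sector 6 of section 1 and sector 7 of section 2, had d below 0, and the other 7 still held more of the endoderm genes than of the mesenchyme genes. APOA1, the main protein of high-density lipoprotein, was at 11417, 14772 and 25004 TPM (lowest, median and highest) in endoderm-rich regions, against 11.9, 1817 and 7604 TPM in mesenchyme-rich regions. COL3A1, a fibrillar collagen chain, was at 18.6, 171 and 502 TPM in endoderm-rich regions, against 839, 1335 and 1735 TPM in mesenchyme-rich regions. The mesenchyme-rich label is therefore relative: 7 of its 9 regions are mixed by these genes, and the lowest values of the endoderm genes in that group come from the 2 regions named. Where a named gene lost its call without these 2 regions, with 7 mesenchyme-rich regions left, its adjusted p without them is given. Section 5 holds no mesenchyme-rich region, so that 4 sections hold both groups. Endoderm-rich and mesenchyme-rich regions number 3 and 3 in section 1, 1 and 3 in section 2, 1 and 1 in section 3, and 3 and 2 in section 4. A difference within section 3 thus compares 1 region with 1, and a difference within section 2 rests on 1 endoderm-rich region. Section 2, sector 5, a region between the groups, was low in both gene sets.

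**Figure D1:**
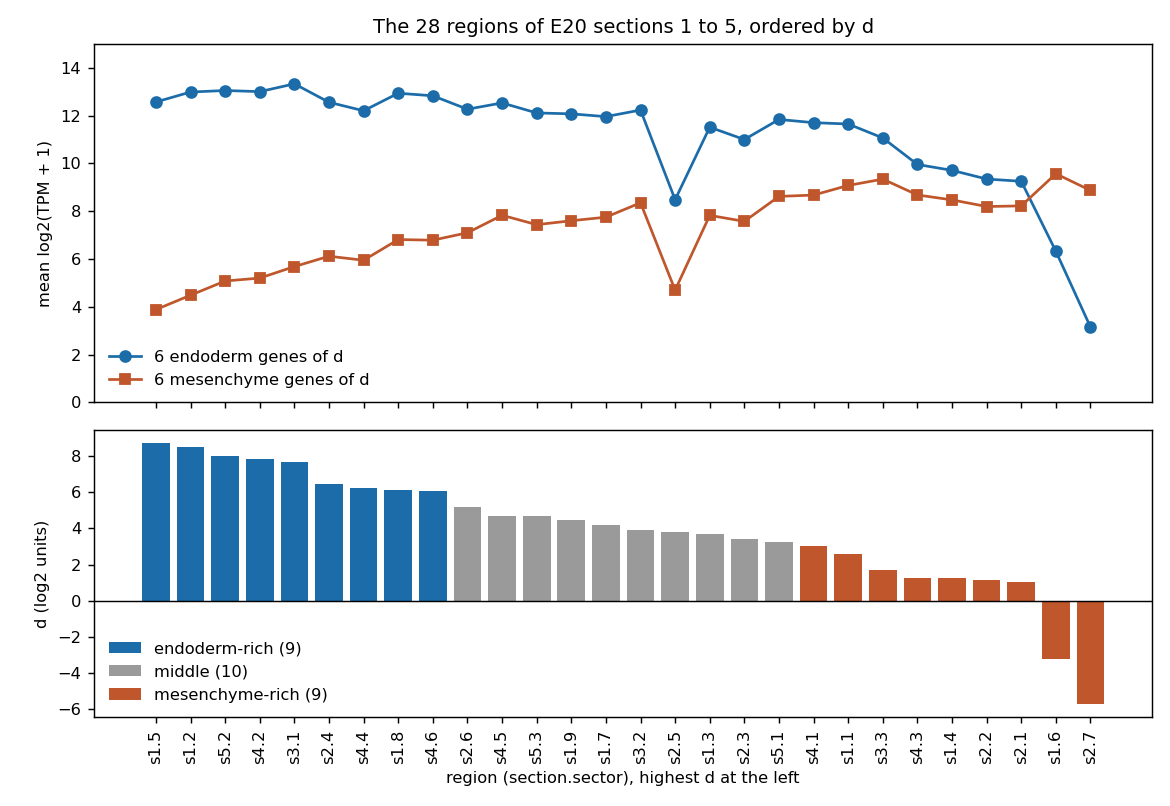
The upper panel gives, for each of the 28 regions, the mean log2(TPM + 1) of the 6 endoderm genes (circles) and of the 6 mesenchyme genes (squares), and the lower panel gives d, with bars coloured by group. The endoderm genes stay high across most of the order and fall below the mesenchyme genes only in the 2 regions at the right end.

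Genes outside the 12 were compared as the log2(TPM + 1) difference, endoderm-rich minus mesenchyme-rich, with the section as a covariate in limma. A gene was called at an adjusted p under 0.05 (Benjamini-Hochberg over all genes fitted). TPM is the authors' length-scaled share of reads, it keeps no depth, and a difference with a pseudocount of 1 understates the change of low genes. The p-values treat regions of 1 embryo as independent and are too small for a statement on embryos, so they are called region-level p-values here. Since the regions were ordered by 12 genes of the same libraries, a call says that a gene went with these 12 genes, and not that separately defined tissues differed. In captured tissue, fewer cells of a type and less RNA per cell cannot be told apart.

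Neither quality measure of the libraries differed between the groups past the test. The number of genes detected (TPM of 1 or more) was 8603 ± 639 in endoderm-rich and 8418 ± 952 in mesenchyme-rich regions (SD, n = 9 each, exact permutation test, two-sided p = 0.651). Mitochondrially encoded genes held 16.8% ± 3.17 of the summed TPM in endoderm-rich and 18.4% ± 4.10 in mesenchyme-rich regions (SD, n = 9 each, exact permutation test, two-sided p = 0.394). The summed TPM of the table was 722418 to 777987 in endoderm-rich and 678359 to 758785 in mesenchyme-rich regions. The 6 endoderm genes alone held 5.25% to 13.6% of it in endoderm-rich and 0.00903% to 4.01% in mesenchyme-rich regions.

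Of 11339 genes tested, 404 (3.56%) were higher and 457 (4.03%) lower in endoderm-rich regions, and the median difference over all genes was -0.042. Counts of called members in the gene lists below are to be read against these shares, and some lie near them. For 78 genes (0.688%) every endoderm-rich region was above every mesenchyme-rich one, and for 106 genes (0.935%) every mesenchyme-rich region was above. Of the called genes, 375 of the 404 and 441 of the 457 had the same sign in each of the 4 sections that hold both groups, against 25.4% of all genes, although these are the regions that gave the calls. Without the 2 regions of lowest d, 299 genes were higher and 310 lower, and 282 and 301 of the original calls remained. The sections weighed unequally: without section 1 the counts fell to 57 higher and 100 lower, and without section 4 to 212 and 273. Without section 2, 267 genes were higher, and without section 3, 293 were lower. On the means of the 4 sections that hold both groups, limma called 0 genes in either direction, with 2059 at an unadjusted p under 0.05, so that no call named below holds in that fit.

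The 15 largest differences among genes that rose in endoderm-rich regions included plasma proteins, carriers, enzymes and regulators. SERPIND1, which makes the thrombin inhibitor heparin cofactor, was at 90.7, 354 and 642 TPM in endoderm-rich regions, against 0.479, 5.298 and 98.3 TPM in mesenchyme-rich regions. The groups overlapped only narrowly, and the difference was 4.61 ± 0.69 (SE, region-level adjusted p = 0.00029). It was 4.68, 6.80, 2.69 and 3.96 within sections 1 to 4. SLC10A1, the uptake carrier for bile acids on liver cells, was at 51.2, 154 and 317 TPM in endoderm-rich regions, against 0, 1.96 and 111 TPM in mesenchyme-rich regions. It differed by 4.39 ± 0.62 (SE, region-level adjusted p = 0.000197), and 1 mesenchyme-rich region reached into the endoderm-rich range. The other 13 of the 15 largest differences lay between 3.70 and 4.36. They belong to AKR1D1, a steroid reductase of bile acid synthesis; G0S2, an inhibitor of fat breakdown; FETUB, a fetuin; ZG16, a lectin; KLK4, a kallikrein protease; ERP27, an endoplasmic reticulum protein; MRLN, a micropeptide that restrains the calcium pump; APOB; RGS2, a regulator of G protein signalling; PRODH2, a hydroxyproline dehydrogenase; AGT, angiotensinogen; and KNG1 and HRG, proteins of the clotting system. All 15 had the same sign in the 4 sections and remained called without the 2 regions of lowest d.

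Among genes of lipoprotein assembly, 8 of 16 tested members outside the 12 were higher and 1 lower, with a median difference of 2.60, or 1.89 without the 2 regions of lowest d. APOB, the scaffold of low-density lipoprotein, was at 671, 975 and 1783 TPM in endoderm-rich regions, against 1.72, 64.3 and 329 TPM in mesenchyme-rich regions. The groups did not overlap, and the difference was 3.93 ± 0.68 (SE, region-level adjusted p = 0.0011). Within the mesenchyme-rich group it was highest in sector 3 of section 3, at 329 TPM, and lowest in sector 7 of section 2, at 1.72 TPM. MTTP, which loads lipid onto APOB, was at 498, 586 and 1104 TPM in endoderm-rich regions, against 1.42, 109 and 311 TPM in mesenchyme-rich regions, without overlap (3.09 ± 0.60, SE, region-level adjusted p = 0.0028). APOM, APOA4, APOC2, the fatty acid binder FABP1 and SOAT2 were among the others that rose. PLTP, which transfers phospholipid between lipoproteins, went the other way, with 0, 14.3 and 58.2 TPM in endoderm-rich regions, against 48.8, 64.3 and 152 TPM in mesenchyme-rich regions, with overlapping ranges (-2.22 ± 0.41, SE, region-level adjusted p = 0.0019).

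Clotting factors and fibrinogen rose in 8 of 16 tested members and fell in 0 (0 at an unadjusted p under 0.05 in limma), with a median difference of 2.21. FGG, the gamma chain of fibrinogen, was at 5935, 11608 and 19839.6 TPM in endoderm-rich regions, against 13.2, 734 and 4877 TPM in mesenchyme-rich regions. The groups did not overlap and differed by 3.55 ± 0.70 (SE, region-level adjusted p = 0.0031), or by 2.74 without the 2 regions of lowest d. The others were FGA, KNG1, HRG, the cofactor F5, plasminogen (PLG), prothrombin (F2) and vitronectin (VTN). Protease inhibitors rose in 11 of 20 tested members, with a median of 2.65. AHSG, a fetal mineral-binding glycoprotein, was at 2358, 4961 and 10220.0 TPM in endoderm-rich regions, against 4.37, 310.5 and 2194 TPM in mesenchyme-rich regions, without overlap (3.45 ± 0.77, SE, region-level adjusted p = 0.0074). Carrier proteins of plasma rose in 5 of 8 members, or 4 without the 2 regions of lowest d, with a median of 3.01. Transferrin (TF), the iron carrier, was at 1510.3, 3495 and 6811 TPM in endoderm-rich regions, against 2.26, 213 and 1447 TPM in mesenchyme-rich regions (3.51 ± 0.74, SE, region-level adjusted p = 0.005). RBP4, the retinol carrier, was at 3843, 7121 and 9518 TPM in endoderm-rich regions, against 3.95, 666 and 3787 TPM in mesenchyme-rich regions. Neither carrier overlapped between the groups, and RBP4 differed by 3.24 ± 0.86 (SE, region-level adjusted p = 0.0225). Albumin (ALB), the main carrier of adult plasma, was much lower in level, with 9.13, 40.95 and 226 TPM in endoderm-rich regions, against 0, 0.983 and 19.96 TPM in mesenchyme-rich regions, and also rose (3.21 ± 0.69, SE, region-level adjusted p = 0.0054). Of 6 complement genes tested, C8A and CD59 rose.

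Enzymes of amino acid, urea and glucose metabolism rose in 8 of 23 tested members and fell in 0 (1 at an unadjusted p under 0.05 in limma), with a median of 1.66, and in 5 without the 2 regions of lowest d. ARG1, the last enzyme of the urea cycle, was at 366, 499 and 1133 TPM in endoderm-rich regions, against 1.34, 168 and 303 TPM in mesenchyme-rich regions. The groups did not overlap, with a difference of 3.49 ± 0.91 (SE, region-level adjusted p = 0.0191). BHMT, a methyltransferase that remakes methionine, was at 64.9, 249 and 389 TPM in endoderm-rich regions, against 0.322, 9.36 and 243 TPM in mesenchyme-rich regions, with overlapping ranges (3.11 ± 0.78, SE, region-level adjusted p = 0.0161). AGXT, HGD, MAT1A, GAMT, OTC and GLDC were the other called members, of which HGD, MAT1A and GLDC had adjusted p-values of 0.0743, 0.0507 and 0.0693 without the 2 regions of lowest d. Genes of bile acid, cholesterol and xenobiotic metabolism rose in 4 of 18 (SLC10A1, MGST1 and ABCB11 among them), with a median of 1.17, and in 2 without the 2 regions of lowest d, where ABCB11 had an adjusted p of 0.059. MGST1, a microsomal glutathione transferase, was at 1132, 1502 and 2591 TPM in endoderm-rich regions, against 78.6, 343 and 678 TPM in mesenchyme-rich regions, without overlap (2.31 ± 0.36, SE, region-level adjusted p = 0.000406). Metallothioneins and antioxidant enzymes rose in 4 of 14, namely MT1G, MT1X, MT1F and catalase (CAT), and MT1G had an adjusted p of 0.0978 without the 2 regions of lowest d. The metallothionein genes are near copies of each other, so the reads of each are uncertain.

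The secretory machinery showed many small differences in 1 direction. Of 29 tested genes of the secretory pathway and its chaperones, 9 rose and 1 fell, 26 had a difference above 0, and the median was 0.61, against -0.042 over all genes. PDIA4, a disulphide isomerase, was at 345, 491 and 598 TPM in endoderm-rich regions, against 94.9, 153 and 315 TPM in mesenchyme-rich regions, without overlap (1.44 ± 0.24, SE, region-level adjusted p = 0.000894). HSPA5, the main chaperone of the endoplasmic reticulum, was at 307, 383 and 499 TPM in endoderm-rich regions, against 57.96, 165 and 262 TPM in mesenchyme-rich regions, also without overlap (1.29 ± 0.27, SE, region-level adjusted p = 0.0045). PDIA6, SSR1, KDELR2, P4HB, HSP90B1, PDIA3 and CALR rose as well, P4HB and CALR with adjusted p-values of 0.0634 and 0.1021 without the 2 regions of lowest d. CREB3L1, a transcription factor held in that membrane and known for collagen secretion in bone, fell, with 0, 3.07 and 11.9 TPM in endoderm-rich regions, against 9.57, 39.4 and 77.1 TPM in mesenchyme-rich regions, with overlapping ranges (-3.42 ± 0.55, SE, region-level adjusted p = 0.000495).

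**Figure D2:**
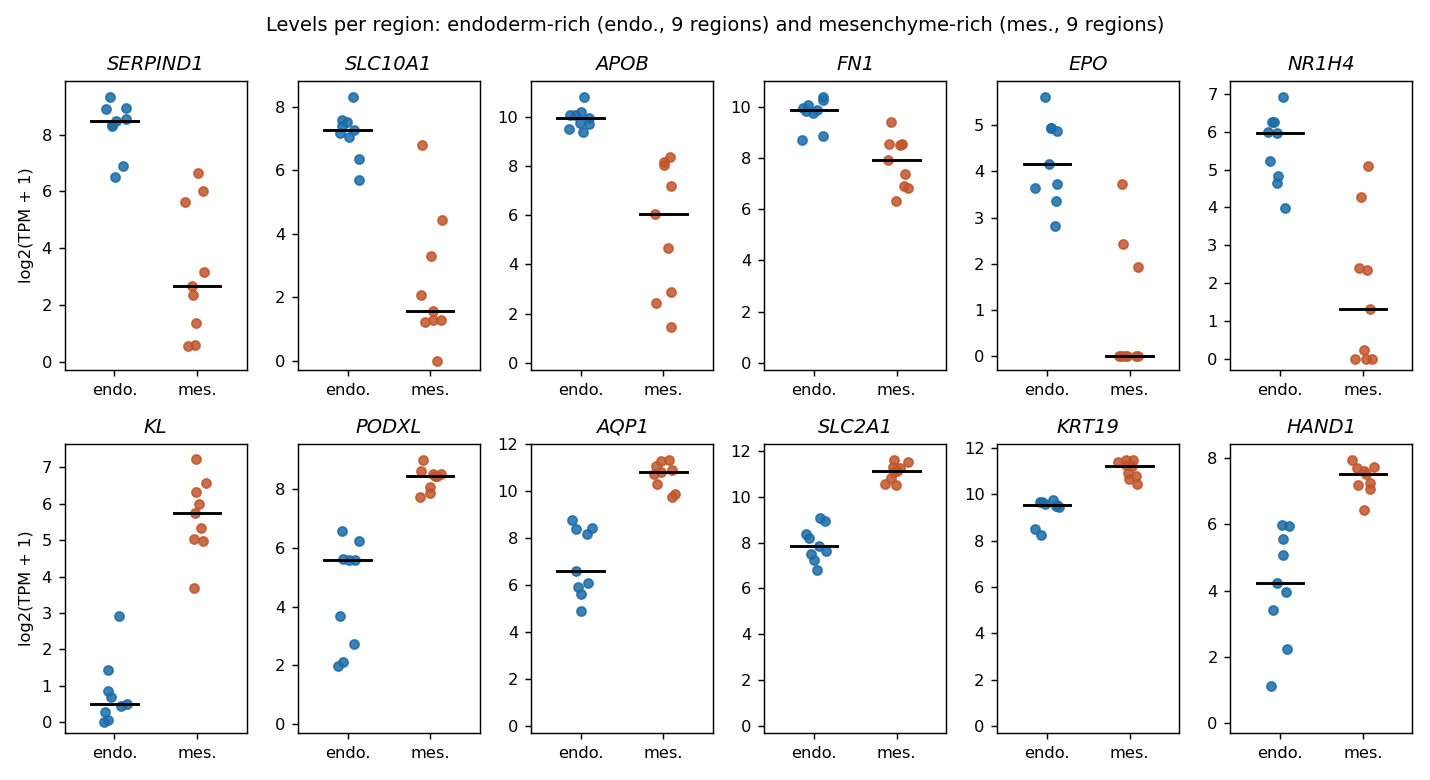
Each point is 1 region on the log2(TPM + 1) scale, with endoderm-rich regions at the left and mesenchyme-rich regions at the right of each panel, and black lines mark medians over 9 regions. The upper row shows genes that were higher in endoderm-rich regions and the lower row genes that were lower, and KL, PODXL, AQP1, SLC2A1, KRT19 and HAND1 do not overlap between the groups.

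Of 21 transcription factors of endoderm tested, 3 rose (NR1H4, FOXA1 and CDX2), against 3.56% of all genes, and KLF5 fell, and 16 of the 21 differences were above 0, with a median of 0.64. NR1H4, the nuclear receptor for bile acids, was at 14.8, 61.8 and 121 TPM in endoderm-rich regions, against 0, 1.505 and 33.3 TPM in mesenchyme-rich regions, with overlapping ranges (3.61 ± 0.71, SE, region-level adjusted p = 0.0029). FOXA1, a pioneer factor of endoderm, was at 22.9, 48.7 and 88.3 TPM in endoderm-rich regions, against 0, 8.097 and 42.7 TPM in mesenchyme-rich regions, with overlapping ranges (2.58 ± 0.74, SE, region-level adjusted p = 0.0344). Without the 2 regions of lowest d, NR1H4 was the only factor of this list still called higher, and the adjusted p-values of FOXA1 and CDX2 were 0.0918 and 0.0581. HNF4A, a master regulator of liver genes, was at 1.77, 7.67 and 189 TPM in endoderm-rich regions, against 0.176, 5.77 and 56.2 TPM in mesenchyme-rich regions. Its difference of 0.22 ± 0.85 (SE, region-level adjusted p = 0.924) did not pass, and it varied widely within both groups. FOXA3 at 2.40 ± 0.84, FOXA2 at 1.70 ± 0.57 and NR5A2 at 1.81 ± 0.66 (SE) had region-level adjusted p-values of 0.0898, 0.0792 and 0.106. GATA4 was listed at 0 in all 9 mesenchyme-rich regions and at 0 to 10.2 TPM in endoderm-rich regions, which was not called (0.79 ± 0.43, SE, region-level adjusted p = 0.333). GATA6 and SOX17 stayed low in both groups, at no more than 10.7 TPM. KLF5, a factor of epithelia, was at 0, 0.0961 and 5.33 TPM in endoderm-rich regions, against 1.13, 18.2 and 38.7 TPM in mesenchyme-rich regions, with overlapping ranges (-3.002 ± 0.66, SE, region-level adjusted p = 0.0061).

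Genes of absorption and of the brush border split between the groups: of 16 tested, 6 rose and 5 fell, or 5 and 4 without the 2 regions of lowest d. The zinc importer SLC39A4 was at 271, 385 and 529 TPM in endoderm-rich regions, against 42.4, 101 and 226 TPM in mesenchyme-rich regions, without overlap (1.82 ± 0.32, SE, region-level adjusted p = 0.0013). MTTP, SLC39A5, the glycerol channel AQP3, the actin bundler villin (VIL1) and the protocadherin CDHR2 rose with it, CDHR2 with an adjusted p of 0.0896 without the 2 regions of lowest d. The water channel AQP1 was at 28.8, 96.3 and 436 TPM in endoderm-rich regions, against 867, 1827 and 2600.1 TPM in mesenchyme-rich regions. Every mesenchyme-rich region was above every endoderm-rich one, with a difference of -3.78 ± 0.43 (SE, region-level adjusted p = 2.20e-05). It was -5.09, -1.21, -6.45 and -2.65 within sections 1 to 4. The values of sections 2 and 3 rest on 1 endoderm-rich region each, so variation between sections cannot be told from variation between regions. SLC2A1, the basal glucose carrier, was at 109.9, 232 and 535 TPM in endoderm-rich regions, against 1473, 2206 and 3137 TPM in mesenchyme-rich regions, without overlap (-3.12 ± 0.27, SE, region-level adjusted p = 1.22e-06). The peptidase DPP4, the peptide carrier SLC15A1 and the membrane linker ezrin (EZR) fell with them, SLC15A1 with an adjusted p of 0.0653 without the 2 regions of lowest d. In endocytic uptake, CUBN, the receptor for vitamin and apolipoprotein uptake, and ASGR1, the asialoglycoprotein receptor, rose among 17 tested genes and CTSL, a lysosomal protease, fell. The list did not rise as a group, with a median difference of -0.22, 7 differences above 0 and 10 below. LRP2, the partner of CUBN, was at 7.67, 21.4 and 23.9 TPM in endoderm-rich regions, against 5.33, 6.89 and 12.1 TPM in mesenchyme-rich regions, and was not called (1.22 ± 0.39, SE, region-level adjusted p = 0.0646).

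Epithelial genes did not follow the endoderm genes as a group: of 22 junction and keratin genes, 2 rose, 2 fell and the median difference was 0.27. EPCAM, an adhesion molecule of epithelia, was at 384, 519 and 662 TPM in endoderm-rich regions, against 273, 604 and 916 TPM in mesenchyme-rich regions. The ranges overlapped, and the difference of -0.23 ± 0.23 (SE, region-level adjusted p = 0.65) was not called. KRT19, a keratin of simple epithelia, was at 297, 743 and 849.9 TPM in endoderm-rich regions, against 1391, 2398 and 2870.2 TPM in mesenchyme-rich regions, without overlap (-1.82 ± 0.23, SE, region-level adjusted p = 6.66e-05). In sector 7 of section 2, where APOB was at 1.72 TPM and RBP4 at 3.95 TPM, EPCAM was still at 437 TPM and KRT19 at 1633 TPM. In sector 6 of section 1, with APOB at 4.42 TPM, EPCAM was at 880.0 TPM and KRT19 at 2420.3 TPM. The 2 regions with the least of the endoderm genes thus held these 2 epithelial transcripts at levels within or above the endoderm-rich range. Desmoplakin (DSP), which anchors keratins to desmosomes, fell too, with 59.99, 69.6 and 93.7 TPM in endoderm-rich regions, against 108, 220.3 and 292 TPM in mesenchyme-rich regions, without overlap (-1.63 ± 0.23, SE, region-level adjusted p = 0.000216). The tight junction gene CLDN1 rose, with 56.001, 120.4 and 147 TPM in endoderm-rich regions, against 0.0907, 8.43 and 53.2 TPM in mesenchyme-rich regions, without overlap (3.05 ± 0.56, SE, region-level adjusted p = 0.0019), and so did CDS1, with an adjusted p of 0.0822 without the 2 regions of lowest d. Unlike EPCAM and KRT19, these genes were low in sector 6 of section 1, with CLDN1 at 2.27 TPM and CDS1 at 0. In sector 7 of section 2 they were at 0.091 and 1.17 TPM.

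**Figure D3:**
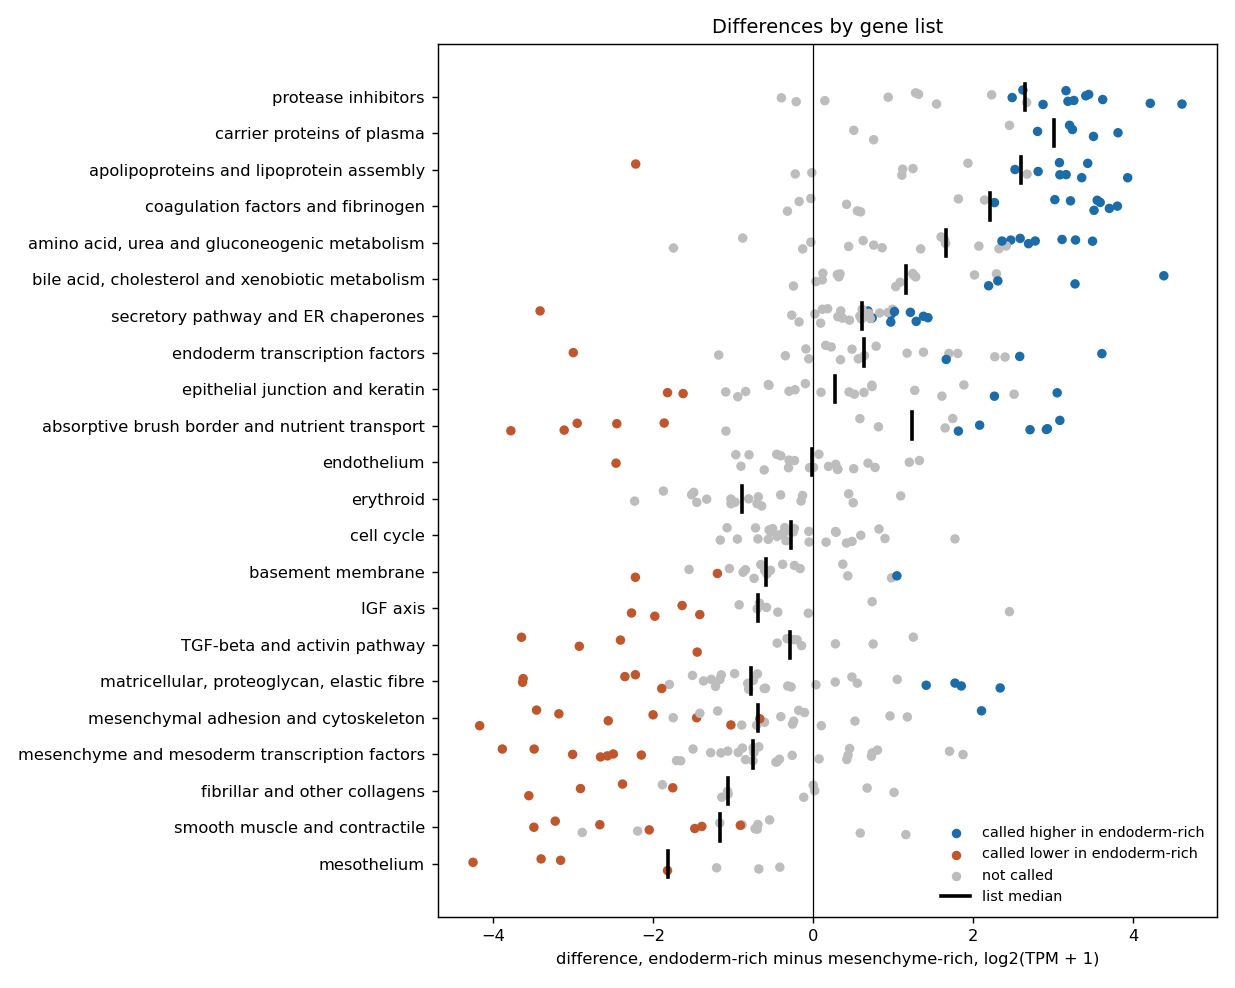
Each point is a gene outside the 12 and its difference, endoderm-rich minus mesenchyme-rich, in log2(TPM + 1), grouped by gene list, with coloured points called, grey points not called and black lines at the list medians. The plasma protein lists at the top lie mostly right of 0, mesothelium lies wholly left of it, and the brush border list splits to both sides.

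The genes that fell most in endoderm-rich regions were membrane receptors, transporters and adhesion molecules. KL, the membrane protein klotho, a co-receptor for a hormonal fibroblast growth factor, was at 0, 0.402 and 6.61 TPM in endoderm-rich regions, against 11.9, 52.4 and 148 TPM in mesenchyme-rich regions. The groups did not overlap, and the difference was -5.04 ± 0.53 (SE, region-level adjusted p = 9.47e-06), the largest of the 457. It was -5.85, -4.12, -4.89 and -4.66 within sections 1 to 4. PODXL, podocalyxin, a charged mucin of podocytes, vessels and mesothelium, was at 2.94, 47.1 and 93.7 TPM in endoderm-rich regions, against 210.3, 348 and 512 TPM in mesenchyme-rich regions, without overlap (-4.26 ± 0.47, SE, region-level adjusted p = 1.48e-05). SLC5A12, a sodium-coupled lactate carrier, was at 5.69, 48.2 and 115 TPM in endoderm-rich regions, against 251, 589 and 862 TPM in mesenchyme-rich regions, without overlap (-4.44 ± 0.49, SE, region-level adjusted p = 1.46e-05). CCN4, a matricellular protein of WNT signalling, was at 5.08, 40.8 and 113 TPM in endoderm-rich regions, against 264, 508 and 1065 TPM in mesenchyme-rich regions (-4.16 ± 0.44, SE, region-level adjusted p = 1.07e-05). The hyaluronan receptor CD44 was at 0.2899, 10.7 and 26.6 TPM in endoderm-rich regions, against 65.1, 126 and 350.2 TPM in mesenchyme-rich regions (-4.17 ± 0.48, SE, region-level adjusted p = 2.20e-05). Neither CCN4 nor CD44 overlapped between the groups. The rest of the 15 largest differences lay between -5.01 and -3.98, among them those of the endothelin receptor EDNRB, the agouti signalling protein ASIP, the neuronal filament peripherin (PRPH), PAMR1, SHISA2, the cation channel MCOLN3, the microtubule regulator STMN2 and the receptor kinases AXL and EPHA7. All 15 had the same sign in the 4 sections and remained called without the 2 regions of lowest d.

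**Figure D4:**
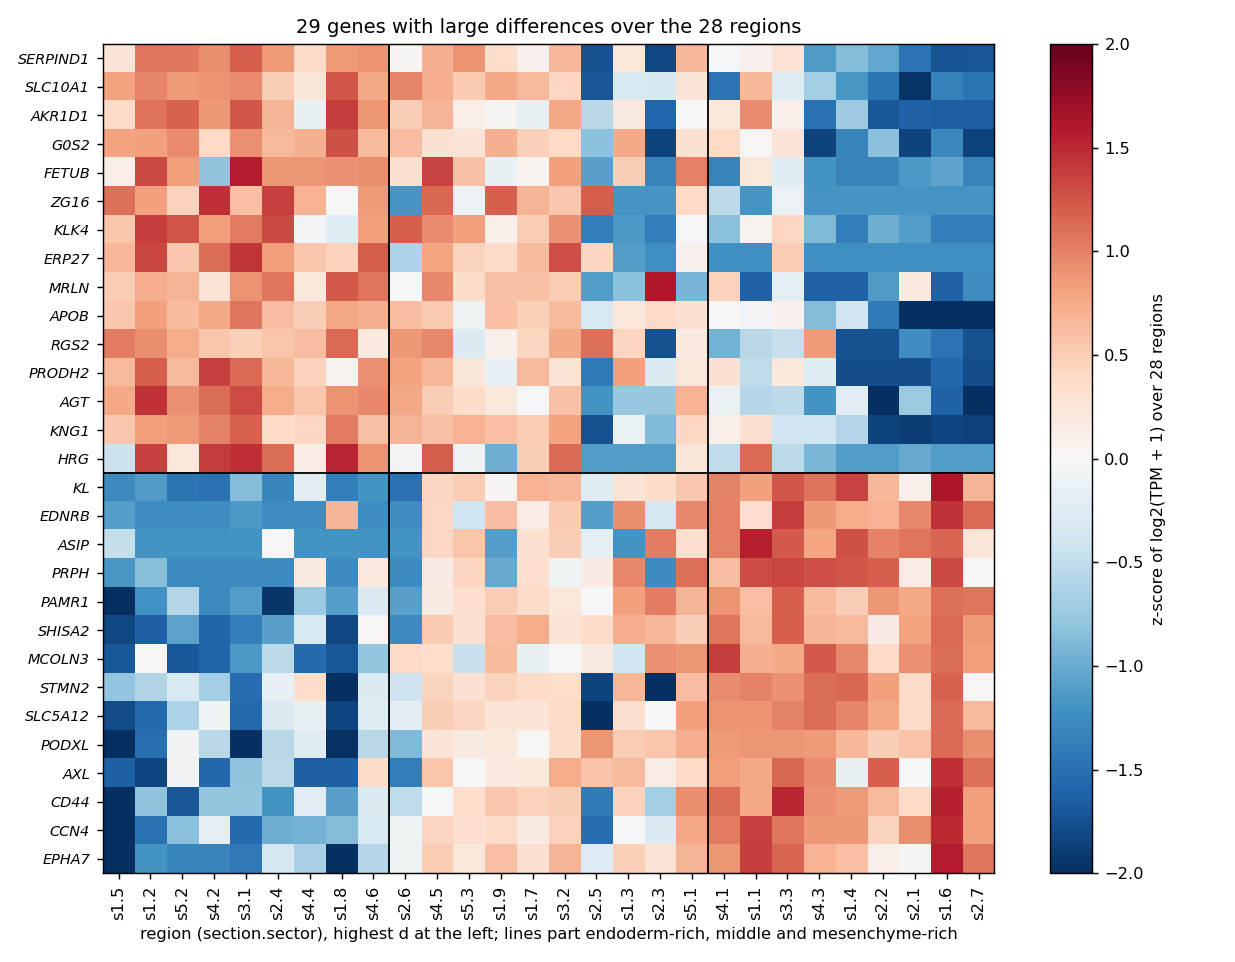
Colours give the z-score of log2(TPM + 1) over the 28 regions for 29 of the 30 genes with the largest differences, with rows higher in endoderm-rich regions above the horizontal line and regions ordered from the highest d at the left to the lowest at the right. The 10 regions between the vertical lines were in neither group, and most of them are intermediate in both blocks of genes.

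In the matrix, most collagens and collagen-modifying enzymes outside the 12 were not called. Of 13 other collagen chains, 4 fell (COL8A2, COL21A1, COL5A2 and COL6A2), with a median of -1.07. COL5A2, which sets the width of collagen fibrils, was at 1.44, 10.5 and 13.8 TPM in endoderm-rich regions, against 18.1, 45.5 and 130.3 TPM in mesenchyme-rich regions, without overlap (-2.39 ± 0.51, SE, region-level adjusted p = 0.0051). Of 22 collagen-modifying enzymes, with a median of -0.22, the lysyl oxidases LOX, LOXL1 and LOXL2 fell, LOXL2 with an adjusted p of 0.0813 without the 2 regions of lowest d. Matricellular proteins and proteoglycans moved both ways, with 4 higher and 5 lower of 30. TGFBI, an integrin ligand induced by transforming growth factor beta, was at 29.1, 55.4 and 101 TPM in endoderm-rich regions, against 484, 588 and 1101 TPM in mesenchyme-rich regions. The groups did not overlap, and the difference was -3.63 ± 0.26 (SE, region-level adjusted p = 7.54e-08), with -3.85, -3.39, -4.34 and -3.21 within sections 1 to 4. SPARC, a collagen-binding glycoprotein, was at 89.4, 203 and 271 TPM in endoderm-rich regions, against 544, 810.2 and 1227 TPM in mesenchyme-rich regions, without overlap (-2.22 ± 0.23, SE, region-level adjusted p = 8.91e-06). EFEMP1, MATN2 and HAPLN1 fell as well, EFEMP1 with an adjusted p of 0.0566 without the 2 regions of lowest d. Fibronectin (FN1), often used to mark mesenchyme, rose instead, with 426, 956 and 1358 TPM in endoderm-rich regions, against 78.5, 243 and 680.0 TPM in mesenchyme-rich regions, with overlapping ranges (1.77 ± 0.26, SE, region-level adjusted p = 0.000288). The proteoglycans GPC3 and VCAN and the matrix protein SPON2 rose with it, SPON2 with an adjusted p of 0.123 without the 2 regions of lowest d. In the basement membrane list the laminin chain LAMB1 rose among 18 members, against 3.56% of all genes. SPARC, already counted above, and the laminin receptor DAG1 fell, against 4.03% of all genes. DAG1 had an adjusted p of 0.0995 without the 2 regions of lowest d.

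Markers of mesenchyme not used by d followed the label only in part. VIM, the intermediate filament of mesenchymal cells, was at 215, 487 and 994 TPM in endoderm-rich regions, against 899, 1215 and 1797 TPM in mesenchyme-rich regions, with overlapping ranges (-1.46 ± 0.24, SE, region-level adjusted p = 0.000568). TWIST1 was listed at 0 in all 18 regions, PDGFRA reached no more than 5.77 TPM in mesenchyme-rich regions, and COL5A1 and COL6A3 no more than 5.94 and 6.91 TPM. Of 24 genes of mesenchymal adhesion and cytoskeleton, 8 fell and 1 rose, or 5 and 0 without the 2 regions of lowest d. CDH11, a cadherin of mesenchyme, was at 0.802, 1.57 and 16.002 TPM in endoderm-rich regions, against 11.3, 29.9 and 48.4 TPM in mesenchyme-rich regions, with overlapping ranges (-3.18 ± 0.48, SE, region-level adjusted p = 0.000311). CDH2, or N-cadherin, went the other way, with 8.49, 37.2 and 98.8 TPM in endoderm-rich regions, against 0.551, 3.43 and 34.97 TPM in mesenchyme-rich regions, with overlapping ranges (2.11 ± 0.62, SE, region-level adjusted p = 0.0394, or 0.097 without the 2 regions of lowest d).

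Of 33 transcription factors of mesenchyme and mesoderm, 7 fell and 0 rose (2 at an unadjusted p under 0.05 in limma), with a median of -0.75. HAND1, a factor of extraembryonic mesoderm and heart, was at 1.18, 17.9 and 62.01 TPM in endoderm-rich regions, against 85.4, 181 and 247 TPM in mesenchyme-rich regions, without overlap (-3.49 ± 0.50, SE, region-level adjusted p = 0.000216). PITX1, a factor of the hindlimb field, was at 3.49, 10.9 and 16.3 TPM in endoderm-rich regions, against 27.2, 75.04 and 98.9 TPM in mesenchyme-rich regions, without overlap (-2.57 ± 0.40, SE, region-level adjusted p = 0.000432). BNC2, HAND2, TBX20, FOXF1, a hedgehog-responsive factor of gut mesenchyme, and MEIS2 were the others, MEIS2 with an adjusted p of 0.0895 without the 2 regions of lowest d. TBX3 at 1.70 ± 0.54 and GATA3 at 1.87 ± 0.62 (SE) had positive differences with region-level adjusted p-values of 0.0558 and 0.0734. Contractile genes fell in 7 of 17 members, with a median of -1.17, and fell in 5 without the 2 regions of lowest d. TPM1, or tropomyosin, was at 256, 353 and 874 TPM in endoderm-rich regions, against 1586, 2501 and 3786 TPM in mesenchyme-rich regions, without overlap (-2.67 ± 0.24, SE, region-level adjusted p = 1.22e-06). TNNT2, troponin T of heart muscle, was at 9.61, 22.8 and 74.9 TPM in endoderm-rich regions, against 98.5, 280.2 and 471 TPM in mesenchyme-rich regions, without overlap (-3.49 ± 0.42, SE, region-level adjusted p = 4.31e-05). The smooth muscle marker CNN1 was at 0 in all 18 regions. DES was at 0 in all 9 mesenchyme-rich regions, and ACTA2 reached no more than 1.01 TPM there. In endoderm-rich regions DES and ACTA2 had medians of 0 and reached higher values, 18.575 and 13.999 TPM. DES was too low to be tested, and ACTA2 was not called. TAGLN, the remaining smooth muscle marker, was at 0, 6.72 and 48.9 TPM in endoderm-rich regions, against 4.67, 61.2 and 152 TPM in mesenchyme-rich regions, and was not called (-2.20 ± 0.70, SE, region-level adjusted p = 0.0605). The part of smooth muscle in these values was not tested.

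Mesothelial genes had differences below 0 in 7 of 7 tested members, and 4 were called (PODXL, LRRN4, BNC1 and KRT19), with a median of -1.82, or 3 called without the 2 regions of lowest d. KRT19 is also counted in the epithelial list above. BNC1, a zinc finger factor of mesothelium and stratified epithelia, was at 0, 13.3 and 24.4 TPM in endoderm-rich regions, against 1.18, 94.3 and 164 TPM in mesenchyme-rich regions, with overlapping ranges (-3.16 ± 0.88, SE, region-level adjusted p = 0.0302, or 0.103 without the 2 regions of lowest d). LRRN4 was at 0, 1.49 and 8.55 TPM in endoderm-rich regions, against 2.94, 37.7 and 54.8 TPM in mesenchyme-rich regions, with overlapping ranges (-3.40 ± 0.61, SE, region-level adjusted p = 0.0013). The marker UPK3B was at 0 in every endoderm-rich region and at 0, 0.672 and 13.2 TPM in mesenchyme-rich regions, and was not called (-1.21 ± 0.53, SE, region-level adjusted p = 0.194). The summed TPM of the 4 mesothelium markers was 0, 1.94 and 8.55 in endoderm-rich and 2.94, 37.7 and 59.6 in mesenchyme-rich regions (lowest, median and highest). LRRN4 alone had the same median of 37.7 TPM in mesenchyme-rich regions. The markers WT1 and MSLN were too low to be tested. WT1 was at 0 in every endoderm-rich region and reached 0.29 TPM in mesenchyme-rich regions. MSLN had medians of 0 and reached 1.75 and 3.21 TPM in endoderm-rich and mesenchyme-rich regions. The part of mesothelium in the mesenchyme-rich values was not tested.

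Among signalling genes, ligands and receptors that changed were mostly lower in endoderm-rich regions. Of 18 BMP genes, the ligands BMP4 and BMP5 and the receptor BMPR2 fell and the target ID2 rose, BMP5 with an adjusted p of 0.109 without the 2 regions of lowest d. BMP4 was at 0, 10.8 and 50.1 TPM in endoderm-rich regions, against 27.8, 90.6 and 183 TPM in mesenchyme-rich regions, with overlapping ranges (-3.18 ± 0.59, SE, region-level adjusted p = 0.002). ID2, an inhibitor of basic helix-loop-helix factors, was at 277, 457 and 751 TPM in endoderm-rich regions, against 25.6, 122 and 429.7 TPM in mesenchyme-rich regions, with overlapping ranges (1.86 ± 0.40, SE, region-level adjusted p = 0.006). In the TGF-beta and activin list 4 of 12 fell: the activin antagonist FST, the latency protein LTBP1, the co-receptor TGFBR3 and FSTL1. TGFBR3 was at 5.37, 31.1 and 43.01 TPM in endoderm-rich regions, against 57.7, 139.9 and 216 TPM in mesenchyme-rich regions, without overlap (-2.41 ± 0.41, SE, region-level adjusted p = 0.000974). Of 11 hedgehog genes tested, only the receptor and target PTCH1 was called, as lower, against 4.03% of all genes. The targets GLI1 and HHIP were not called. PTCH1 was at 3.04, 7.56 and 14.3 TPM in endoderm-rich regions, against 12.6, 35.8 and 81.1 TPM in mesenchyme-rich regions, with overlapping ranges (-2.10 ± 0.45, SE, region-level adjusted p = 0.0052). The ligand IHH had a positive difference that was not called (1.83 ± 0.71, SE, region-level adjusted p = 0.138), at 1.79, 5.54 and 26.9 TPM in endoderm-rich regions, against 0, 0.772 and 6.45 TPM in mesenchyme-rich regions.

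In the WNT list the secreted antagonists parted. SFRP1 was at 21.4, 34.01 and 85.7 TPM in endoderm-rich regions, against 0.632, 6.803 and 14.5 TPM in mesenchyme-rich regions (1.99 ± 0.47, SE, region-level adjusted p = 0.0099). FRZB was at 22.3, 57.3 and 166 TPM in endoderm-rich regions, against 327, 559 and 940.4 TPM in mesenchyme-rich regions (-3.16 ± 0.39, SE, region-level adjusted p = 5.25e-05). Neither overlapped between the groups, and of the other 13 genes only the receptor FZD2 was called, as lower, with an adjusted p of 0.0953 without the 2 regions of lowest d. In the PDGF, FGF and KIT list the receptors FGFR2 and PDGFRB fell and MET rose among 18 tested, MET with an adjusted p of 0.0512 without the 2 regions of lowest d. FGFR2 was at 0.735, 3.31 and 18.3 TPM in endoderm-rich regions, against 18.97, 65.02 and 101 TPM in mesenchyme-rich regions, without overlap (-3.76 ± 0.51, SE, region-level adjusted p = 0.000148). In the IGF axis the binding proteins IGFBP2, IGFBP3, IGFBP5 and IGFBP7 fell among 12 genes, IGFBP7 with an adjusted p of 0.059 without the 2 regions of lowest d, and 0 rose in limma (1 gene, IGFBP1, was higher at an unadjusted p under 0.05, with an adjusted p of 0.0517). IGFBP3 was at 145, 335 and 671 TPM in endoderm-rich regions, against 744, 1293 and 1914 TPM in mesenchyme-rich regions, without overlap (-1.98 ± 0.26, SE, region-level adjusted p = 8.02e-05). IGF2, the fetal growth factor, was at 87.3, 288 and 401 TPM in endoderm-rich regions, against 191, 482 and 1094 TPM in mesenchyme-rich regions, and was not called (-0.93 ± 0.33, SE, region-level adjusted p = 0.0995). Of 11 Notch genes, 0 were called by limma, with 1 at an unadjusted p under 0.05.

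Erythropoietin (EPO), the hormone that drives red cell formation, rose in endoderm-rich regions. It was at 6.08, 16.9 and 47.996 TPM in endoderm-rich regions, against 0, 0 and 12.2 TPM in mesenchyme-rich regions, of which 6 were listed at 0 (3.11 ± 0.60, SE, region-level adjusted p = 0.0025). Within sections 1 to 4 the difference was 4.62, 3.72, 1.22 and 1.62. Its receptor EPOR was not called (-1.46 ± 0.79, SE, region-level adjusted p = 0.326). The macrophage growth factor CSF1 and the shared cytokine receptor IL6ST fell. CSF1 was at 0, 2.13 and 6.34 TPM in endoderm-rich regions, against 14.3, 18.9 and 38.999 TPM in mesenchyme-rich regions, without overlap (-3.18 ± 0.51, SE, region-level adjusted p = 0.000517).

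The shares of erythroid, endothelial and haematopoietic genes called were near those over all genes (3.56% higher and 4.03% lower) or 0. Of 20 erythroid genes, 0 were called by limma and 2 had an unadjusted p under 0.05. Their differences were below 0 for 17 genes and above 0 for 3, with a median of -0.89. Embryonic globin HBZ ranged over 0, 6.53 and 1486 TPM in endoderm-rich regions, against 0.441, 76.9 and 1641 TPM in mesenchyme-rich regions (lowest, median and highest). Of 22 endothelial genes, the angiopoietin receptor TEK fell, with 19.5, 52.4 and 117 TPM in endoderm-rich regions, against 110.2, 284 and 591 TPM in mesenchyme-rich regions, with overlapping ranges (-2.47 ± 0.42, SE, region-level adjusted p = 0.00096). PECAM1, CDH5 and KDR, which mark endothelium more broadly, had differences of -0.61 ± 0.57, -0.41 ± 0.56 and -0.80 ± 0.43 (SE) with region-level adjusted p-values of 0.618, 0.759 and 0.318. The 6 endothelium markers summed to 43.0, 157 and 340 TPM in endoderm-rich and 211, 482 and 695 TPM in mesenchyme-rich regions (lowest, median and highest), and TEK was the called one. In the VEGF and angiopoietin list 3 of 16 genes fell, against 4.03% of all genes. They were TEK, VEGFB and the VEGF receptor partner NRP2, and VEGFA, FLT1 and KDR were not called. The part of endothelial cells in these values was not tested. Of 16 haematopoietic and macrophage genes, CD14 rose, and it was lost without the 2 regions of lowest d (adjusted p = 0.105), while the macrophage markers CSF1R and C1QA were at 0 in all 18 regions. Of 29 cell cycle genes, 0 were called by limma, with 1 at an unadjusted p under 0.05.

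Some markers of other cell types were present at unequal levels in the groups, and others were at 0 in all 18 regions. The 4 germ cell markers summed to 104, 129 and 322 TPM in endoderm-rich and 6.02, 24.2 and 114 TPM in mesenchyme-rich regions, most of it PRDM1, a repressor also used in endoderm, and NANOS3 was at 0 in all endoderm-rich regions. Of 6 primordial germ cell genes tested, PRDM1 and DPPA3 rose. DPPA3, a maternal and germ cell factor, was at 0, 18.45 and 58.6 TPM in endoderm-rich regions, against 0, 0 and 19.5 TPM in mesenchyme-rich regions, of which 7 were at 0 (2.94 ± 0.87, SE, region-level adjusted p = 0.042, or 0.105 without the 2 regions of lowest d). Of 7 epiblast genes tested, DPPA4 and TDGF1 fell, while 3 of the 7 differences were above 0. The epiblast marker DPPA5 was at 0 in all 18 regions, and SOX2 reached no more than 0.211 TPM. L1TD1 was at 0, 1.46 and 7.03 TPM in endoderm-rich regions, against 0, 0 and 4.80 TPM in mesenchyme-rich regions, and was not called. DPPA4, a chromatin protein of pluripotent cells, was at 2.81, 6.92 and 15.4 TPM in endoderm-rich regions, against 29.8, 43.02 and 103 TPM in mesenchyme-rich regions, without overlap (-2.53 ± 0.39, SE, region-level adjusted p = 0.000381). TDGF1, a co-receptor for NODAL, was at 0, 0 and 2.96 TPM in endoderm-rich regions, against 0.983, 6.42 and 23.03 TPM in mesenchyme-rich regions, with overlapping ranges (-1.93 ± 0.57, SE, region-level adjusted p = 0.0404, or 0.0997 without the 2 regions of lowest d). The 4 trophoblast markers in the table summed to 180, 285 and 837 TPM in endoderm-rich and 65.4, 181 and 353 TPM in mesenchyme-rich regions, most of it CGA, the hormone alpha subunit, and CYP19A1 was at 0 in all 18 regions. Of 5 trophoblast and decidua genes tested, CGA rose, also without the 2 regions of lowest d, and all 5 differences were above 0. Of the amnion markers, IGFBP3 made up nearly all of the sums of 145, 335 and 671 TPM in endoderm-rich and 745, 1293 and 1915 TPM in mesenchyme-rich regions. VTCN1 was at 0 in every endoderm-rich region and GABRP in every mesenchyme-rich region. The decidual markers PAEP in all 18 regions and PRL in the endoderm-rich regions were at 0, while IGFBP1, the third, was at 42.4, 79.2 and 108 TPM in endoderm-rich regions, against 0.0491, 18.6 and 71.2 TPM in mesenchyme-rich regions. Of the primitive streak markers, TBXT was at 0 in all 18 regions. EOMES reached 23.7 TPM in an endoderm-rich region and 0.435 TPM in a mesenchyme-rich one, with medians of 0, and MIXL1 was at 0 in every endoderm-rich region and reached 2.77 TPM in a mesenchyme-rich one. The part of these cell types in the results was not tested.

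Genes of energy metabolism split between the groups. The glycolysis and hypoxia list had 2 genes higher and 3 lower of 20. LDHB, the lactate dehydrogenase subunit of oxidative tissues, was at 1192, 1550.3 and 1935 TPM in endoderm-rich regions, against 444, 521 and 858 TPM in mesenchyme-rich regions. The groups did not overlap, and the difference was 1.40 ± 0.17 (SE, region-level adjusted p = 4.31e-05). Besides SLC2A1, the lactate carrier SLC16A1 and the hypoxia-induced peptide ADM fell, SLC16A1 with an adjusted p of 0.0752 without the 2 regions of lowest d. Ferritin light chain (FTL), an iron store, was at 2028, 2699 and 5534 TPM in endoderm-rich regions, against 661, 1095 and 3201 TPM in mesenchyme-rich regions, and rose (1.10 ± 0.25, SE, region-level adjusted p = 0.0089).

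The 10 regions between the groups took no part in the contrast, although their d comes from the same 12 genes. Their d spans 3.22 to 5.17, and limma called 0 genes on the slope against d in either direction (0% of 11339), with 790 genes at an unadjusted p under 0.05. On simulated data, slopes of 0.5 and 1 per unit of d were recovered for 0% of planted genes, so the 10 regions could not give calls at such slopes. The slope was positive for 312 of the 404 genes higher in endoderm-rich regions (77.2%), against 50.5% of all genes, with a median of 0.40 log2 units per unit of d. It was negative for 347 of the 457 lower genes (75.9%), against 49.5% of all genes, with a median of -0.36. Without sector 5 of section 2, with 9 regions left, the shares were 74.8% and 77.7%, against 52.7% positive and 47.2% negative over all genes. Among single genes, SERPIND1 had a slope of 1.79 ± 1.20, SLC10A1 of 1.94 ± 0.76, KL of -1.24 ± 0.67 and PODXL of -1.28 ± 0.31, while STMN2 at 1.16 ± 1.23 and CCN4 at 0.22 ± 0.56 had slopes opposite to their difference (SE, log2 units per unit of d).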

How the data were processed

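The authors deposited 1 table of TPM per gene and region (17023 genes, 86 regions), made from polyadenylated RNA of laser-captured regions. Reads went through fastp, HISAT2 and StringTie per the submitters' processing notes. The build of the genome was not given in the sources used here. The columns sum to 495547 to 777987 TPM, so the table holds part of the normalized genes. TPM keeps no read counts, so the depth is unknown and no counting interval is given. Each column name matched the stage, embryo, section and sector of 1 sample's labels.

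Genes that reached a TPM of 1 in 5 or more of the 28 regions of sections 1 to 5 (11351, or 11339 outside the 12 of d) were fitted as log2(TPM + 1) in limma 3.58.1 (R 4.3.3, eBayes with trend, group plus section, 18 regions). Adjusted p-values are Benjamini-Hochberg over all genes fitted. Library measures were compared over all 48620 splits with scipy 1.17.1, and pictures drawn with matplotlib 3.10.9. On simulated data with 200 planted genes of 11351, this fit recovered 2% of differences of 1, 44.5% of 2 and 96% of 4.

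The members and the 43 gene lists were chosen with earlier results of these data known. Of 901 list genes, 821 were in the table, and the rest are not analysed here. Named genes were called genes outside the 12 with a mean TPM of at least 20 in the higher group, the 15 largest in each direction, up to 6 called members per list and direction, members of the transcription factor and signalling lists, and the cell type markers. SOAT2, F2, VTN, OTC, GLDC, HSP90B1, PDIA3 and CALR are further called members, named after their values were seen to complete their lists. Alternatives were a pseudocount of 0.1, filters, quantile normalization, other section terms, section means, other region sets and leaving out each section. The versions without the 2 regions of lowest d, and without sector 5 of section 2 for the middle regions, were chosen after seeing the data. Values of some named genes are not reported here. No sequence is shown.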

Additional observations from a re-analysis of the deposited data

Results flagged for a closer look

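In 6 of 66 groups of 9 regions tested, 1 region stood apart from the rest. Its gap over the range was above Dixon's 95% critical value. Each group was the endoderm-rich or the mesenchyme-rich regions for 1 measure. The measures were the 30 genes with the largest differences, the number of genes detected, the mitochondrially encoded share and d. For normal values that were not selected, chance gives such a distance in about 1 in 20 groups. That rate does not hold here, because d set the groups and the genes were picked by their differences. Some of these genes were also undetected in most regions of a group. The 6 groups are therefore listed as values only, and their number is not compared with that rate.

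Among endoderm-rich regions, EDNRB was at 4.985 on the log2(TPM + 1) scale in sector 8 of section 1, against 0.387 in the next region and a median of 0. KL was at 2.928 on that scale in sector 4 of section 4, against 1.43 in the next endoderm-rich region. Among mesenchyme-rich regions, HRG was at 5.254 in sector 1 of section 1, against 1.43 in the next, and RGS2 at 6.467 in sector 3 of section 4, against 3.20. ERP27 was at 3.639 in sector 3 of section 3 and at 0 in the other 8 mesenchyme-rich regions. The same sector 3 of section 3 had 10674 genes detected, against 9014 in the next mesenchyme-rich region and a median of 8180.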

How the results depend on the processing

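No alternative turned the sign of a called named gene among the settings run. Counts of higher and lower genes moved by over 1.5 times in these settings. On section means limma called 0 and 0, with 2059 genes at an unadjusted p under 0.05; this fit has 4 sections with both groups. With the 6 highest against the 6 lowest regions the counts were 190 and 143. Ranked by the 6 endoderm genes alone, 286 genes were lower. Leaving out a section gave 57 to 402 higher and 100 to 454 lower genes, with 57 and 100 without section 1, 267 higher without section 2, 293 lower without section 3, and 212 and 273 without section 4; fewer regions enter each of these fits. Other settings kept both counts within 1.5 times: a pseudocount of 0.1 (355 and 407), no filter (302 and 386), the stricter filter (391 and 457), quantile normalization (485 and 488), no section term (590 and 540), all 28 regions in 3 groups (493 and 594), a slope on d over 28 regions (446 and 578), ranking by the 6 mesenchyme genes alone (352 and 480), and, chosen after seeing the data, no regions of lowest d (299 and 310). Of 170 called named genes, 62 were still called without section 1, 105 with 6 regions a side and 139 without the 2 regions of lowest d. In the 10 middle regions 0 genes were called in any of the settings run, with 749 to 990 at an unadjusted p under 0.05. No paired analysis was possible because the replicate numbers only name the regions in accession order and pair none; the sections shared by both groups enter as the section term and the section means above. The depth is unknown, so the precision of low TPM values is unknown.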

Other observations

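APOB, TF and FGG, which were abundant in the endoderm-rich regions, reached far lower values in sections 6 and 7 and in the E18 embryos. Their lowest values in the endoderm-rich regions were 671, 1510.3 and 5935 TPM. In the 8 regions of sections 6 and 7 of the E20 embryo, APOB reached no more than 0.177 TPM, TF 0.335 TPM and FGG 0.199 TPM. The highest values in E18 embryo 1 were 57.1 TPM for APOB, 2.65 TPM for TF and 40.9 TPM for FGG, and in E18 embryo 2 they were 2.52, 6.28 and 13.3 TPM. These maxima are given as values, and E18 and E20 differ in embryo and in the sections taken.

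Part of the genes that were higher in the mesenchyme-rich regions were low elsewhere as well. KL reached 2.905 TPM in sections 6 and 7, 15.2 TPM in E18 embryo 1 and 12.3 TPM in E18 embryo 2, against a median of 52.4 TPM in mesenchyme-rich regions. AQP1 reached 79.1, 153 and 33.1 TPM there, all below its lowest value of 867 TPM in mesenchyme-rich regions. Others were not so bound to these regions. HAND1 reached 674 TPM in sections 6 and 7, 536 TPM in E18 embryo 1 and 436 TPM in E18 embryo 2, all above its highest value of 247 TPM in mesenchyme-rich regions. KRT19 reached 3784 TPM in E18 embryo 1, against a highest value of 2870.2 TPM in mesenchyme-rich regions.

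EPO had its highest value of the series outside the endoderm-rich regions, at 98.4 TPM in 1 region of sections 6 and 7, where its median was 0.555 TPM.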
